A study of Homo sapiens with 8 samples.

Results

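The serine/arginine-rich splicing factors (SR proteins, with the related TRA2 proteins) and the heterogeneous nuclear ribonucleoproteins (hnRNPs) were examined in hypoxic head and neck cancer cells. The members were 37 genes taken by name, 14 for SR proteins and 23 for hnRNPs, out of 14528 genes that could be named in the deposited table. Values were found for 36 of them, 13 SR proteins and all 23 hnRNPs, in 95 RefSeq transcripts. No value was used for SRSF12. RefSeq gives coding transcripts an NM identifier (88 of the 95) and noncoding ones an NR identifier (7 of the 95). Of the coding ones, 5 averaged less than 0.5 FPKM over the 2 conditions and entered no count of transcripts.

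The cells were SQ20B, 1 established line from a head and neck squamous cell carcinoma. Poly(A)-selected RNA was sequenced from 4 replicates in normoxia, whose oxygen level the source names do not give, and from 4 replicates held at 0.5% oxygen for 16 h. Conditions were read from the source names, because the treatment text of the normoxia samples repeats that of the hypoxia samples. The table holds 1 FPKM per transcript and condition, taken over the replicates by the authors. FPKM counts fragments relative to the length of the transcript and to all mapped fragments, so levels can be compared between genes. No value of a single replicate was used, so the differences below have no error and no test, and read depth was not analysed here. Changes are given as log2((hypoxia FPKM + 0.1)/(normoxia FPKM + 0.1)), a scale that lessens the change of transcripts near 0. A gene or transcript is called lower or higher where it differed by at least 1.5-fold, a log2 change of 0.585 in size, and its mean over both conditions reached 0.5 FPKM ("at the limit of level" below). A gene's level is the sum over its transcripts in the table.

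SR proteins carry RNA recognition motifs and a tail rich in arginine and serine. They bind enhancer sequences in exons and help U1 and U2 snRNP components to find the neighbouring splice sites, and kinases of the SRPK and CLK families phosphorylate the tail. The hnRNPs coat nascent RNA through RNA recognition or KH motifs and often act the other way, by silencing exons. Many SR protein genes also regulate themselves: a "poison" exon, when included in their own mRNA, brings a premature stop codon and exposes the mRNA to nonsense-mediated decay (NMD).

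Poison exons are shown first because they are the regulatory sequences this family is known for. In the GENCODE annotation of GRCh37, the build of the deposited loci, an exon was counted if it held the stop codon of an NMD transcript and lay inside an intron of the MANE Select transcript, the agreed reference transcript of the gene. Such an exon was annotated in 8 of the 13 SR protein genes with values and in 3 of the 23 hnRNP genes (HNRNPH1, HNRNPL and HNRNPLL), against 21.5% of the 10976 genes at the limit of level that have a MANE transcript. Of the genes called lower in hypoxia, SRSF3, SRSF6, SRSF7 and TRA2B had one. The 4 sequences below run 5′ to 3′ from the start of the longest such exon to its premature stop, in the sense of the mRNA. They were read from GRCh37, and the stop codon is in capitals.
SRSF3, chr6:36567598-36567631, plus strand, in intron 3: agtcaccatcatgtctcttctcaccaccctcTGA
SRSF6, chr20:42087793-42087944, plus strand, in intron 2: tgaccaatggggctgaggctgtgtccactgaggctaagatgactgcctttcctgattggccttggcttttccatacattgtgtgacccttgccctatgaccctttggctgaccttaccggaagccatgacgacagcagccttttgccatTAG
SRSF7, chr2:38976461-38976488, minus strand, in intron 3: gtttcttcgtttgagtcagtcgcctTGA
TRA2B, chr3:185649560-185649640, minus strand, in intron 1: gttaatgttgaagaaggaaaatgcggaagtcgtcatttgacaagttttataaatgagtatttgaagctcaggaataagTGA

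The exons themselves are 456 bases long in SRSF3, 268 in SRSF6, 449 in SRSF7 and 276 in TRA2B. In SRSF3 and SRSF7 the stop follows within 34 and 28 bases of the exon's start, and in SRSF6 only after 152. SRSF4, SRSF9, SRSF11 and TRA2A also had such exons and were not called lower. SRSF1, SRSF2, SRSF5, SRSF8 and SRSF10 had NMD transcripts without a cassette exon of this kind. The exon structures of the RefSeq transcripts were not analysed here, so no NR transcript below is matched to a sequence.

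The hypoxia label was checked first. All 9 genes with values from a list of 10 known hypoxia-induced genes were higher in hypoxia, with log2 changes from 1.02 for VEGFA to 5.58 for NDRG1. Of 9 epithelial markers, which included the general ones CDH1 and EPCAM, 8 had values. Among those with values were KRT5 and TP63, and KRT14 had none. Of 10 markers of blood, endothelium, fibroblasts, liver and heart, only the endothelial cadherin CDH5 had values, at 4.78 FPKM in normoxia and 2.83 in hypoxia. The FPKM of all transcripts summed to 536005 in normoxia and 458431 in hypoxia. Scaling both columns to the same sum would add 0.23 to each log2 change and move the median of all genes from -0.07 to 0.15. Equal sums turn the sign of 10 of the 36 members, all within 0.23 of 0, and decide several calls. The counts of genes called in each family are therefore given both ways. So are the log2 changes of the members called lower and of SRSF11, while most other values are given on the deposited scale alone.

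Nearly all SR protein genes had a log2 change below 0, and some were called lower in hypoxia. Of 13 genes, 6 were called lower and none higher, and 12 lay below 0. Over all 12106 genes at the limit of level, 11.2% were called lower and 9.95% higher, and among the 7667 genes with a mean of at least 5 FPKM, a level that all 36 members exceeded, 12.5% were called lower. The share of genes below 0 was 56.4% over all genes and 64.4% over those with a mean of at least 5 FPKM. The median log2 change was -0.52 for the SR proteins, -0.07 for all genes and -0.15 for those with a mean of at least 5 FPKM. Added over the family, the FPKM was 1480 in normoxia and 1021 in hypoxia. With equal FPKM sums, 4 SR protein genes were called lower and none higher, and 11 lay below 0. Under that scaling, 5.03% of all genes were called lower and 18.3% higher, and 36.3% lay below 0. In bulk RNA scaled to the library, less RNA of a gene per cell and fewer cells with that RNA cannot be told apart.

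SRSF1 (SF2/ASF, chr17:56078280-56084707), a proto-oncogene and the best studied SR protein, had the lowest log2 change of all 36 members. It stood at 222 FPKM in normoxia and 120 in hypoxia, 1.85-fold lower (-0.89). SRSF6 (SRp55, chr20:42086504-42092244) stood at 60.4 and 33.5 FPKM (-0.85). SRSF7 (9G8, chr2:38970741-38978636), an SR protein with a zinc knuckle, stood at 106 and 59.3 FPKM (-0.84). TRA2B (chr3:185632358-185655924), which binds GAA-rich exonic enhancers, stood at 92.8 and 52.0 FPKM (-0.84). The 4 changes were almost equal although the level of SRSF1 was well above that of SRSF6. All 4 were still called lower with equal FPKM sums, at -0.66, -0.63, -0.61 and -0.61.

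SRSF3 (SRp20, chr6:36562090-36572244), the smallest SR protein and with SRSF7 an adaptor for mRNA export, was the most abundant SR protein mRNA. It stood at 249 FPKM in normoxia and 152 in hypoxia, 1.63-fold lower (-0.71), and with equal FPKM sums its log2 change was -0.48, short of the limit. These values, like all others here, are RNA levels and do not measure protein. By immunoblot, the paper reported more SRSF3 protein in hypoxic than in normoxic SQ20B cells. SRSF8 (chr11:94800041-94804387), a near copy of SRSF2 and the rarest SR protein mRNA here, stood at 11.0 and 7.28 FPKM. Its log2 change of -0.59 was only just past the limit. It fell short of it with equal FPKM sums (-0.37), equal medians (-0.53), quantile normalization (-0.57), a pseudocount of 1 (-0.54) and coding transcripts alone (-0.58). How reads were divided between SRSF8 and SRSF2 is not given in the sources used here, so the level of SRSF8 is uncertain.

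The 7 SR protein genes that were not called had log2 changes from -0.52 to 0.21. SRSF2 (SC35, chr17:74730197-74775336), which binds exonic enhancers and marks nuclear speckles, stood at 216 and 151 FPKM (-0.52). SRSF10, which becomes a splicing repressor when dephosphorylated, stood at 146 and 105 FPKM (-0.48). SRSF4 (-0.36), SRSF9 (-0.34) and TRA2A (-0.31) were lower by less, and SRSF11 was at -0.13 (0.09 with equal FPKM sums). SRSF5 (SRp40, chr14:70233000-70238722) was the exception. It was higher in hypoxia, at 109 FPKM against 93.9 (0.21), and both of its transcripts moved that way.

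**Figure D1:**
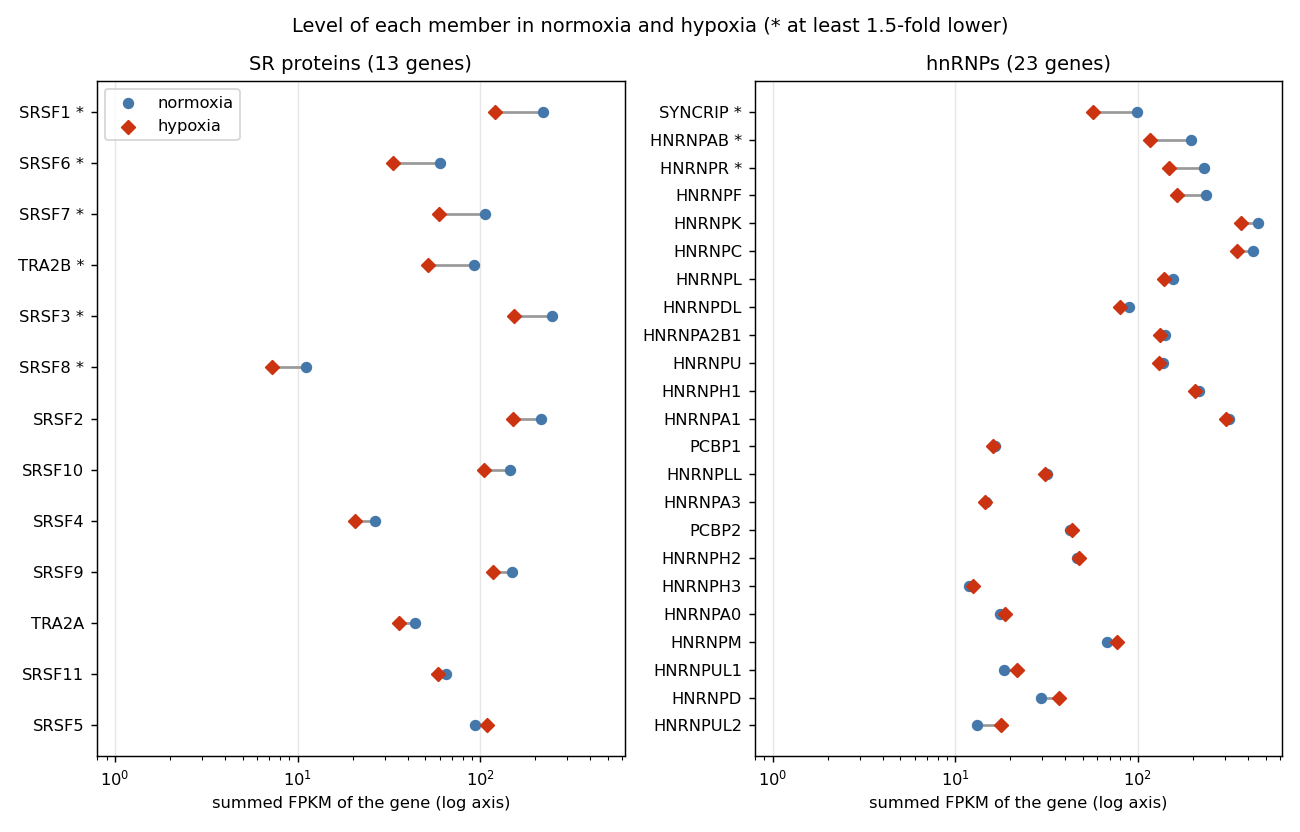
Summed FPKM of each member gene in normoxia (circles) and hypoxia (diamonds) on a log axis, 1 value per condition, for 13 SR proteins (left) and 23 hnRNPs (right), ordered by log2 change. Stars mark the 6 SR protein and 3 hnRNP genes at least 1.5-fold lower, and SRSF5 is the only SR protein gene with its diamond to the right.

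The hnRNP genes stayed closer to the rest of the transcriptome. Of 23 genes, 3 were called lower and none higher (11.2% and 9.95% of all genes), and 15 (65.2%) had a log2 change below 0. Among genes with a mean of at least 5 FPKM, 64.4% lay below 0. The hnRNP median log2 change was -0.05, against -0.07 for all genes and -0.15 for those with a mean of at least 5 FPKM. That last group was not matched to the members in level. The median of its mean FPKM was 20.2, against 77.5 for the hnRNPs and 82.7 for the SR proteins. With equal FPKM sums none was called lower and 1, HNRNPUL2, was called higher, and 6 lay below 0, against 5.03%, 18.3% and 36.3% of all genes under that scaling. The added FPKM of the family was 3006 in normoxia and 2525 in hypoxia. The difference between the families was not tested.

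The 3 lower hnRNP genes included a pair of close relatives. SYNCRIP (hnRNP Q, chr6:86317502-86353043) stood at 98.5 FPKM in normoxia and 56.5 in hypoxia, 1.74-fold lower (-0.80). HNRNPR (chr1:23636276-23670853), its paralog, stood at 230 and 148 FPKM, 1.56-fold lower (-0.64). HNRNPAB (chr5:177631508-177659823, a span that also holds PHYKPL) stood at 194 and 117 FPKM, 1.66-fold lower (-0.73). With equal FPKM sums the 3 changes were -0.58, -0.41 and -0.50, that of SYNCRIP the nearest to the limit.

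The 4 most abundant members were hnRNPs, and none of them was called lower or higher. HNRNPK, which binds C-rich RNA through KH domains, had the highest mean level, 457 FPKM in normoxia and 368 in hypoxia (-0.31), and its 3 transcripts lay within 0.03 of each other in log2 change. HNRNPC, which binds U-tracts, stood at 428 and 347 FPKM (-0.30). HNRNPA1, the classic antagonist of SRSF1 at splice sites, stood at 315 and 304 FPKM (-0.05). A transcript of HNRNPA1P10, a processed copy of HNRNPA1 that the table places in the same locus, was listed at 94.9 and 105 FPKM, and with it the HNRNPA1 level was 410 and 409 FPKM. HNRNPH1 followed at 215 and 204 FPKM (-0.07), and SRSF3 was the fifth by mean level.

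The G-run binding proteins did not share a direction. HNRNPF (chr10:43881065-43904696) stood at 235 and 164 FPKM (-0.52), just short of the limit, while its relatives HNRNPH2 (0.04) and HNRNPH3 (0.07) differed little. HNRNPH2 shares its locus with RPL36A-HNRNPH2 read-through transcripts, and with them its change was -0.03. HNRNPH1 and HNRNPH2 are also close in sequence, as are PCBP1 and PCBP2, which makes the split of reads between them uncertain.

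Among the others, HNRNPA2B1 (-0.08), HNRNPU (-0.08), which anchors RNA to chromatin, HNRNPL (-0.17), which binds CA repeats, HNRNPDL (-0.17), HNRNPLL (-0.02), HNRNPA3 (-0.01), PCBP1 (-0.04) and PCBP2 (0.02) were within 0.2 of 0. Also above 0 were HNRNPA0 (0.08), HNRNPM (0.18), HNRNPUL1 (0.23), HNRNPD (0.32) and HNRNPUL2 (0.43). HNRNPD (AUF1), which binds AU-rich elements and promotes mRNA decay, stood at 29.4 FPKM in normoxia and 36.8 in hypoxia. HNRNPUL2 was higher by the most, at 13.2 and 17.8 FPKM, and with the HNRNPUL2-BSCL2 read-through transcript that overlaps it the change was 0.38.

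Some single transcripts went further than their gene totals. Of 83 coding transcripts at the limit of level, 17 were called lower and 3 higher, against 14.3% and 10.5% of all coding transcripts at that level. The lower ones were 8 of 25 in SR proteins and 9 of 58 in hnRNPs, the latter close to the share of all. With equal FPKM sums 12 of the 83 were called lower, and with quantile normalization also 12. The shares of all coding transcripts under these scalings were not counted. The 7 noncoding ones split, with 2 called lower and 1 higher, against 14.6% and 10.9% of all noncoding transcripts. In 9 of the 28 members with at least 2 transcripts, the largest and smallest log2 change differed by 1.0 or more, against 13.5% of the 3753 genes with at least 2. This difference can only grow with the number of transcripts, which was 7 in SRSF10 and in PCBP2. The 2 shares were not matched for that number, so they do not show that the members were unusual. How Cufflinks shares reads between overlapping transcripts affects each such value, and its part in these differences was not tested.

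**Figure D2:**
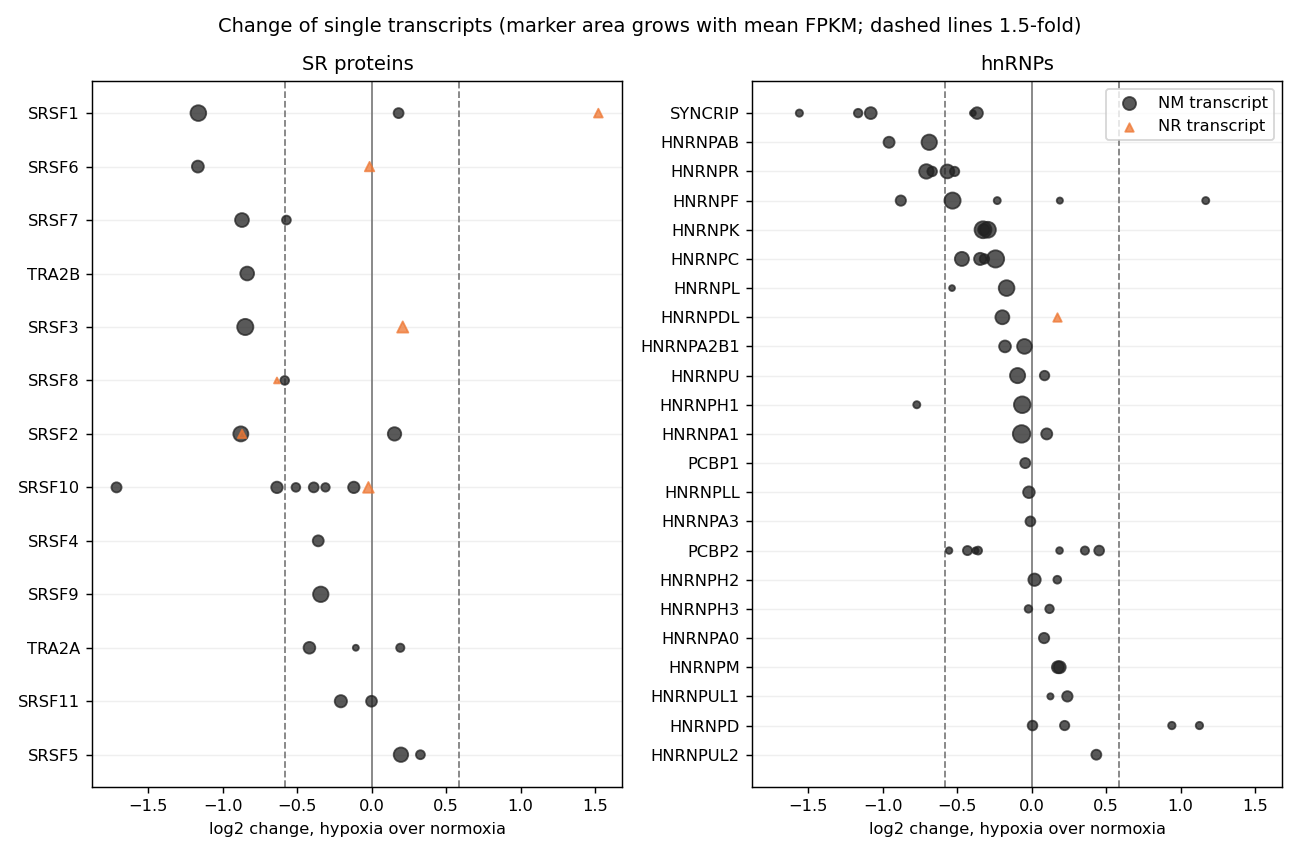
Log2 change of each transcript averaging 0.5 FPKM or more, by gene, for SR proteins (left) and hnRNPs (right). Circles are coding (NM) and triangles noncoding (NR) transcripts, the marker area grows with the mean FPKM, and the dashed lines mark 1.5-fold. The NR transcript of SRSF1 lies at 1.52 and its main coding transcript at -1.16.

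In SRSF1 the transcripts went in opposite directions. The main coding transcript NM_006924 stood at 203 FPKM in normoxia and 90.5 in hypoxia, 2.24-fold lower. The second coding transcript, NM_001078166, stood at 14.3 and 16.2 FPKM (0.18), and the noncoding NR_034041 at 4.48 and 13.1 FPKM, 2.87-fold higher. The share of NR_034041 in the SRSF1 total was thus 2.02% in normoxia and 10.9% in hypoxia, and that of NM_006924 went from 91.5% to 75.6%.

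SRSF3 and SRSF6 showed the same order with level noncoding transcripts. SRSF3 NM_003017 stood at 225 and 125 FPKM (-0.85), whereas NR_036610 stood at 23.9 and 27.6 FPKM (0.21), so that the noncoding share was 9.60% in normoxia and 18.1% in hypoxia. SRSF6 NM_006275 stood at 48.3 and 21.5 FPKM, 2.25-fold lower, the lowest log2 change (-1.17) of any main coding transcript in the family. SRSF6 NR_034009 stood at 12.1 and 12.0 FPKM (-0.01), and its share was 20.0% and 35.8%. The main coding transcripts of SRSF1, SRSF3 and SRSF6 were thus lower by more than their gene totals.

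In SRSF10 a coding and the noncoding transcript gained share alike. Its 6 coding transcripts ranged from -1.71 for NM_006625, which stood at 24.6 and 7.44 FPKM, to -0.12 for NM_001191006, at 29.5 and 27.1 FPKM. The share of NM_001191006 in the SRSF10 total was 20.2% in normoxia and 25.9% in hypoxia. NM_006625 made up 16.9% of the SRSF10 total in normoxia and 7.09% in hypoxia. The noncoding NR_034035 stood at 21.3 and 21.0 FPKM (-0.02), and its share was 14.6% and 20.0%. The table lists SRSF10 on an unlocalized scaffold of chromosome 1 (gl000191_random, 36273 to 50281), while GENCODE has the gene at chr1:24290837-24307417. How reads were divided between these places is not given in the sources used here. The loci of the other 35 members overlapped their GENCODE genes.

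SRSF2 differed from these. Its noncoding NR_036608 stood at 9.30 and 5.04 FPKM (-0.87), almost the same change as that of the coding NM_001195427, at 148 and 80.3 FPKM (-0.88). The other coding transcript, NM_003016, stood at 58.9 and 65.5 FPKM (0.15), and its share of the SRSF2 total went from 27.3% to 43.4%. MFSD11 lies in the same listed span as SRSF2, and although the libraries were stranded, whether strand was used in counting is not given in the sources used here. In SRSF8, the noncoding NR_103726 (0.811 and 0.486 FPKM) and the coding NM_032102 (10.2 and 6.79 FPKM) lay at -0.64 and -0.58, on either side of the 1.5-fold limit. HNRNPDL was the only hnRNP with a noncoding transcript, NR_003249, at 7.15 and 8.06 FPKM, a share of 8.03% and 10.2%.

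Of the 7 members with coding and noncoding transcripts, 4 (SRSF1, SRSF3, SRSF6 and SRSF10) had a noncoding share higher by at least 5 percentage points in hypoxia, against 15.0% of the 480 genes with both kinds. The 480 genes were not matched to the members for their share in normoxia or for the change of their coding transcripts. In SRSF6 and SRSF10 the noncoding FPKM was level (12.1 and 12.0, 21.3 and 21.0). Their higher share thus reflects lower coding FPKM. Because a share compares transcripts within a condition, it is the same under every scaling of the columns by 1 factor.

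**Figure D3:**
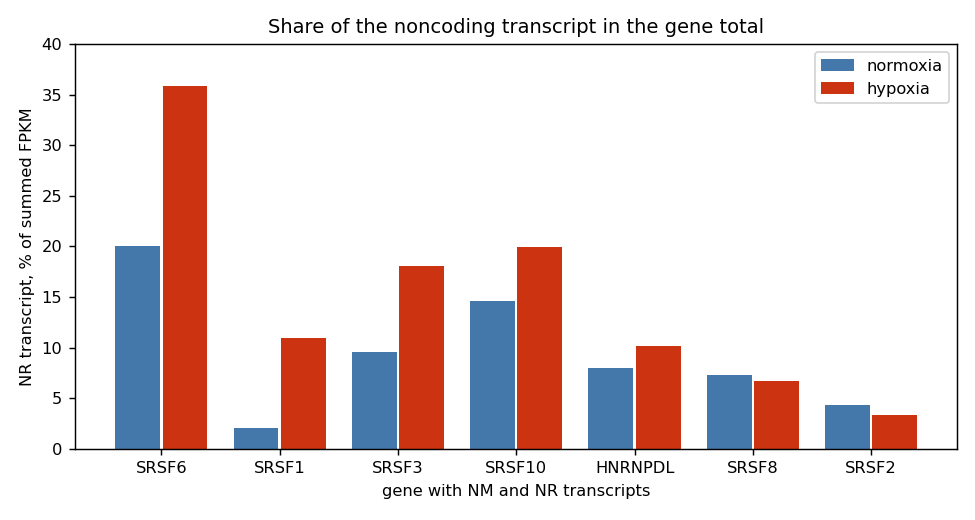
Share of the noncoding (NR) transcript in the summed FPKM of the gene, in percent, for the 7 members with both kinds, as bars for normoxia and hypoxia with 1 value each. SRSF6 has the highest share, 20.0% in normoxia and 35.8% in hypoxia, and in SRSF2 and SRSF8 the share is slightly lower in hypoxia.

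HNRNPF, HNRNPD, SYNCRIP and PCBP2 had coding transcripts that moved apart. In HNRNPF, NM_001098204 made up 87.4% of the total in normoxia and stood at 206 and 142 FPKM (-0.53). The minor NM_004966 stood at 1.97 and 4.54 FPKM (1.17) and NM_001098206 at 23.1 and 12.5 FPKM (-0.88). In HNRNPD, NM_031369 stood at 2.40 and 5.35 FPKM (1.13) and NM_001003810 at 2.75 and 5.37 (0.94), while NM_002138 was level at 13.5 FPKM in both conditions. Together the first 2 of these account for most of the higher HNRNPD total.

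In SYNCRIP, NM_006372 stood at 46.2 and 21.8 FPKM (-1.08) and NM_001159676 at 35.6 and 27.6 (-0.37). Their order was reversed by this, since NM_001159676 made up 36.1% of the total in normoxia and 48.8% in hypoxia. NM_001159674 was listed at 0 in normoxia and at 0.118 FPKM in hypoxia. In PCBP2, the poly(C)-binding protein, the level total hid transcripts from -0.55 (NM_001128912) to 0.45 (NM_001128914). The 4 transcripts of HNRNPR and the pair of HNRNPAB, by contrast, all lay below 0, from -0.71 to -0.52 and at -0.69 and -0.96, and 2 of the 4 HNRNPR transcripts fell short of the 1.5-fold limit.

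Other genes of SR protein and hnRNP function were compared from lists. Of 24 SR-related proteins at the limit of level, which carry arginine/serine-rich stretches without being SR proteins, 1 was called lower and none higher (11.2% and 9.95% of all genes), with a median log2 change of -0.01. They ranged from LUC7L (-0.64) to SON (0.52). Of 16 further RNA-binding proteins found in hnRNP complexes, 1 was called lower and none higher, with a median of -0.17. ELAVL1 (HuR), which binds AU-rich elements, had the lowest value of that list (-0.81). RBMX (hnRNP G) was at -0.45.

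Of the 4 CLK kinases, which phosphorylate SR proteins in the nucleus, 3 were called higher in hypoxia, a subgroup singled out after its values were seen. Of 9 genes for SR protein kinases and nuclear importers, 3 were called higher and none lower (9.95% and 11.2% of all genes), with a median of 0.08. CLK1 stood at 46.9 FPKM in normoxia and 74.2 in hypoxia (0.66), CLK3 at 10.3 and 19.4 (0.90) and CLK4 at 11.0 and 17.1 (0.63), while CLK2, at 5.40 and 7.48 FPKM (0.46), was not called. SRPK1, the cytoplasmic SR protein kinase, had the lowest value of the list, at 85.8 and 60.1 FPKM (-0.51). TNPO3, which imports SR proteins into the nucleus, stood at 31.3 FPKM in both conditions.

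**Figure D4:**
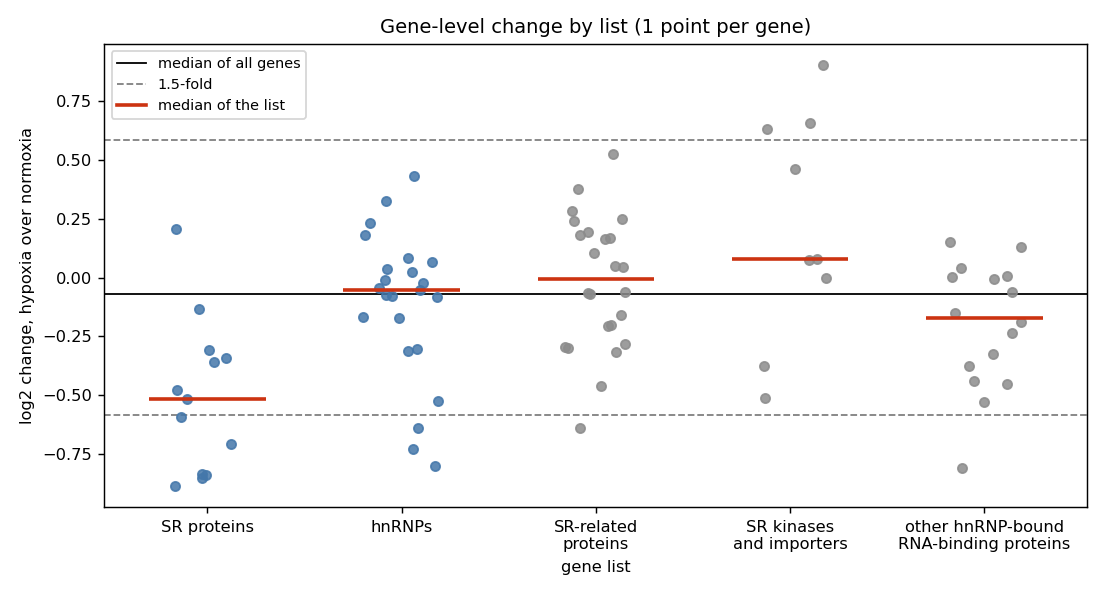
Gene-level log2 change (hypoxia over normoxia) in 5 gene lists, 1 point per gene averaging 0.5 FPKM or more. Short red bars are list medians, the black line the median of all genes (-0.07) and the dashed lines 1.5-fold. The SR proteins centre on -0.52 and the hnRNPs on -0.05, and the 3 points above the upper dashed line are CLK1, CLK3 and CLK4.

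Promoters were searched on both strands for ACGTG, the core of the hypoxia response element, and for the E-box CACGTG, which contains it. RefSeq promoters of GRCh38.p14, from 250 bases before to 50 after the start, were at hand for 11 SR protein and 22 hnRNP genes with values. ACGTG occurred in 6 SR protein and 10 hnRNP promoters, and in 27.1% of the 9671 promoters of genes at the limit of level. CACGTG occurred in none of the SR protein promoters and in 8 of the hnRNP promoters, against 10.1%. Of the 9 members called lower, 5 had ACGTG and 1 had CACGTG. A match of letters is not a bound site.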

How the data were processed

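Polyadenylated RNA of 4 normoxia and 4 hypoxia replicates of SQ20B was sequenced. The authors aligned reads to hg19 with STAR 2.3.0.1 and ran the Cufflinks suite 2.1.1 with RefSeq annotation, per the labels and the methods. The deposited FPKM values are 1 per transcript and condition. The table's 4 other columns of results hold the authors' own comparison (log2 fold change, test statistic, p-value and q-value) and were not used.

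Python 3.11.15, numpy 2.4.6, pandas 2.3.3 and matplotlib 3.10.9 were used. RefSeq identifiers were paired with symbols through the GRCh38.p14 annotation, used for names only (24293 of 24812 transcripts). The summing and calling steps were tested on simulated data. With 1 value per condition no test was run, replicate spread and counting error could not be estimated, and the depth of each library was not analysed here. Members and lists were chosen with earlier results of these data known. Values are given for members at least 1.5-fold apart, members with NM and NR transcripts, members whose transcripts differed by 1.0 or more in log2 change, the 5 most abundant members, SRSF2, SRSF3, HNRNPC and HNRNPF, and the extremes of the other lists, of which 1 is not reported here. The others are given by log2 change, and CLK1, CLK2, CLK4, RBMX, TNPO3 and CDH5, and the FPKM values of SRSF5 and HNRNPUL2, were added after their values were seen. The counts of transcript spread and noncoding share over all genes, and the sums with overlapping transcripts, were added after the data were seen. Alternatives changed the pseudocount, FPKM limit, scaling, fold limit and use of NR transcripts.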

Additional observations from a re-analysis of the deposited data

How the results depend on the processing

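A value was taken as moved where a median changed by 0.1 or more on the log2 scale or a count by more than 1.5 times. Pseudocounts of 1 and 0.01, no FPKM limit, a limit of 5 FPKM and coding transcripts alone moved none of the counts and medians in this way. With equal FPKM sums the median log2 change was -0.29 for SR proteins and 0.17 for hnRNPs, against 0.15 for all genes. No hnRNP gene was then called lower, against 5.03% of all genes. With quantile normalization the medians were -0.25 and 0.13, against -0.02 for all genes. Under it 4 SR protein genes and 1 hnRNP gene, SYNCRIP, were called lower, against 9.69% of all genes. Equal medians turned the hnRNP median to 0.0085. At 1.2-fold, 11 SR protein genes, 6 hnRNP genes and 41 coding transcripts were called lower, and at 2-fold 0, 0 and 6, where 33.0% and 2.62% of all genes were called lower. The shares of all coding transcripts at these fold limits were not counted. No SR protein gene and 2 hnRNP genes were called higher at 1.2-fold, against 23.8% of all genes. Equal medians gave 4 members, and equal sums and quantile normalization 10 members each, the other sign of log2 change, none of them a member called lower or higher. The count of noncoding transcripts called higher was 1 throughout. No paired analysis was possible because each condition was used as 1 value over its replicates, and for the same reason no replicate was left out in turn.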
